A study of Mus musculus with 12 samples.

Results

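Cell cycle and DNA replication genes were followed as a set of 35 genes in the urogenital sinus of fetal mice at E18.5, shortly before birth. The members were taken by name from a table of 56495 genes, and all 35 were found. They fell into 13 S-phase members, which prepare for or carry out DNA replication, and 22 mitotic members, which act in late S phase, G2 and mitosis. All 35 passed a filter on low values (at least 1 FPKM in at least 3 libraries) that kept 13904 genes.

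RNA sequencing covered 12 libraries in 4 groups of 3, which were mutant males, wild type males, mutant females and wild type females. The mutants carried the genotype Inv(Itga6-nsi)d11lac, whose name gives an inversion with an end at Itga6, a gene of chromosome 2, and an allele called d11lac. The labels state neither the position of the end called nsi nor what d11lac is, and give the wild type animals no other allele. Per the labels, dissection took the bladder off and left the first stretch of urethra on the sinus, with the vagina in females. Whether each library is its own embryo is not given, so p-values here measure the spread between these libraries.

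Cells that pass from G1 into S phase switch on genes for replication proteins and nucleotide supply, largely through E2F transcription factors. Cells that go on to divide switch on a later set of genes for the spindle, the kinetochores and the mitotic kinases, largely through the MuvB complex with B-MYB and FOXM1. In the urogenital sinus, epithelium and mesenchyme both hold dividing cells in late gestation, when epithelial buds grow into the mesenchyme in males. In bulk tissue, fewer dividing cells and less RNA per dividing cell cannot be told apart.

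FPKM counts fragments relative to gene length and to the mapped fragments of a library, and values here are FPKM divided by a scaling factor per library. Relative sequencing depth, read from the steps between low values, was 0.582 to 0.717 in the 6 mutant libraries and 0.812 to 1 in the 6 wild type libraries. Genotype and depth therefore cannot be told apart. The gene Rn7sk took 13.8%, 14.9% and 12.2% of the FPKM sum in mutant male 1, mutant male 3 and wild type male 1. It was listed at 0 in each other library, and its part in the results below was not tested. Xist and 4 genes of the Y chromosome matched the labelled sex in all 12 libraries, and no gene of the regional urogenital sinus list was listed at 0. Markers of basal and squamous epithelium summed to 432 to 602 scaled FPKM in mutant males and 282 to 451 in wild type males, and to 527 to 1132 in mutant females and 363 to 448 in wild type females. Markers of skeletal muscle summed to 376 to 551 in mutant males and 597 to 834 in wild type males, and to 339 to 449 in mutant females and 386 to 513 in wild type females. Over both sexes, 6 of 6 tested basal and squamous markers were higher and 5 of 7 skeletal muscle markers were lower in mutants by limma. Of all genes tested, 18.9% were higher and 21.6% lower. In males alone, 1 basal and squamous marker was called higher and 5 skeletal muscle markers lower, and in females alone 5 and 0. Markers of neural cells summed to 139 to 182 in mutant males and 219 to 248 in wild type males, and to 21.99 to 190.2 in mutant females and 146 to 181 in wild type females. Markers of blood summed to 4203 to 11767 in mutant males and 699.8 to 7213 in wild type males, and to 2746 to 12064 in mutant females and 5519 to 12619 in wild type females. Wild type males 1 and 2 stood apart, with 426 and 635 scaled FPKM of Hbb-bs, a beta globin, against 1617 or more in each of the other 10 libraries. In males all 7 blood markers were above 0, mutant over wild type, at a median log2 fold change of 1.99, and 1 of 7 was called. Mutant female 1 had 191 scaled FPKM of Krt17, a basal marker, against at most 81.6 in each other library. It had 52.2 of Pdgfra, a mesenchyme marker, against 90.1 or more. Not every marker of these lists set it apart. Krt5 was at 138 and Trp63 at 8.91, against 140 and 9.83 in mutant female 3, and Col1a1 at 540, against 385 in mutant male 2. Mutant female 3 had 5.82 of Tubb3, a neural marker, against 66.3 or more in each other library. The other neural markers were also lowest there, except Sox10 at 3.03 and S100b at 1.15, against 2.82 in wild type female 3 and 1.09 in wild type male 3. No listed marker of these kinds was at 0, and the part of these tissues in the results below was not tested.

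Promoter sequences were looked at for elements that S-phase and mitotic genes are known for, and not every member has them. Promoters from RefSeq (GRCm38.p6, 250 bases before to 50 bases after the start) were matched for 31 of the 35 members, without Tpx2, Aurkb, Mcm4 and Ccna2. They were searched on both strands for the CHR element (TTTGAA), which MuvB binds, for the CCAAT box, which NF-Y binds and whose name spells it, and for E2F-like sites spelled TTTCCCGC, TTTGGCGC, TTTCGCGC or TTTGCCGC. A CHR element stood in 14 of 19 mitotic members (73.7%) and 2 of 12 S-phase members (16.7%), beside 20.2% of 27025 genes in the promoter table. A CHR element together with a CCAAT box stood in 14 of 19 mitotic members and 2 of 12 S-phase members, beside 7.97% of all genes. A CCAAT box, with or without a CHR element, stood in 17 of 19 mitotic members (89.5%) and 9 of 12 S-phase members (75%), beside 41.1% of all genes. An E2F-like site stood in 1 of 19 mitotic members (5.26%) and 4 of 12 S-phase members (33.3%), beside 2.60% of all genes. The S-phase members with such a site were Mcm3, Mcm5, Mcm6 and Mcm7. These shares describe letters in a window and name no bound site.

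The 120 bases before the start are printed for 8 members named in the results below, on the strand of each gene. Capitals mark a CHR element, which reads TTCAAA where it lies on the other strand, a CCAAT box, which there reads ATTGG, or an E2F-like site. In Mcm6 a pair of E2F-like sites on opposite strands overlap. Depdc1a, Kif11, Top2a and Cdk1 were lower in mutants and carry a CHR element that begins 16, 19, 23 and 15 bases before the start. Plk1 was higher in mutants, and its CHR element begins at base 31 after the start, outside the printed stretch. Bub1 was lower in mutants and shows a pair of CCAAT boxes and no CHR element in the window. Among mitotic members not printed, Ttk was lower over both sexes and carries a CHR element, while Nusap1, Ccnb1 and Cenpe were lower and carry none. Aurka was higher and carries one. Bub1b, Ccnb2, Cdc20, Cenpf, Ect2, Kif23 and Mki67 carry one and were not called over both sexes, and Birc5, also not called, carries none. Mcm6 and Mcm5 stand for the replicative helicase and were not called in any comparison of genotypes. The E2F-like sites of Mcm5 begin 153 and 149 bases before the start, outside the printed stretch.
Depdc1a (chr3:159495313-159495432, plus strand): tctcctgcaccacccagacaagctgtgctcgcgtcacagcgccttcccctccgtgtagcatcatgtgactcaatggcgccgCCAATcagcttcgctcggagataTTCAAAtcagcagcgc
Kif11 (chr19:37376262-37376381, plus strand): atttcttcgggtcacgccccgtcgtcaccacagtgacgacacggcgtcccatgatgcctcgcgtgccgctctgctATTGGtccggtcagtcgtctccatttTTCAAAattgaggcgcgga
Top2a (chr11:99024190-99024309, minus strand): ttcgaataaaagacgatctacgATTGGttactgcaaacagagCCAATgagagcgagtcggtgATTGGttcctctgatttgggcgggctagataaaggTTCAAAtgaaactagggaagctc
Cdk1 (chr10:69352913-69353032, minus strand): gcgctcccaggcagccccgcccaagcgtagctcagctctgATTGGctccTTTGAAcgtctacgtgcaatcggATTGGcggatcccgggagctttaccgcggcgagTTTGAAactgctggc
Plk1 (chr7:122159315-122159434, plus strand): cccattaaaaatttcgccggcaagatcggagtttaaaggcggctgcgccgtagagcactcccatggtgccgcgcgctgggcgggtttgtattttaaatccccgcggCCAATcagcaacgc
Bub1 (chr2:127831860-127831979, minus strand): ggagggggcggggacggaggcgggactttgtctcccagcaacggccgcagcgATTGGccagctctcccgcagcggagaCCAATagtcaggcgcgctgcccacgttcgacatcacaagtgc
Mcm6 (chr1:128359706-128359825, minus strand): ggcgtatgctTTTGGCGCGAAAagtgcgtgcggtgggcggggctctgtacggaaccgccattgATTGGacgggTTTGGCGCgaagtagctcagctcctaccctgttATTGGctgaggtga
Mcm5 (chr8:75109389-75109508, plus strand): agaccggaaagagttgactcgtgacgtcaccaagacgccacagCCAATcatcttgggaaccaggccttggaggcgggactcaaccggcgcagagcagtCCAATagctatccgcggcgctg

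All members were detected in every library, over a wide range of levels per transcript length. Averaged over the 12 libraries, the mitotic genes ran from Top2a, the topoisomerase that untangles sister chromatids, at 62.5 scaled FPKM, through Cdk1, the kinase that drives entry into mitosis, at 46.3, down to Depdc1a at 1.71. The S-phase genes ran from the helicase subunit Mcm6 at 53.1 and the sliding clamp Pcna at 42.4 down to the transcription factor E2f1 at 4.28. Neighbours in this order overlapped between libraries, as Top2a spanned 49.3 to 83.1, Mcm6 47.5 to 63.9 and Cdk1 40.8 to 53.1 scaled FPKM.

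Taken as lists, the mitotic members stood highest in wild type females. Each member was set against its own mean over the 12 libraries on the log2 scale, and the values were averaged over the list. Mitotic members stood at -0.21, -0.07 and -0.02 in mutant males and 0.01, -0.01 and 0.05 in wild type males, and at -0.03, -0.14 and -0.15 in mutant females and 0.24, 0.17 and 0.17 in wild type females. Mutant and wild type libraries did not overlap in either sex. S-phase members stood at -0.01, 0.08 and 0.01 in mutant males and -0.08, -0.11 and -0.08 in wild type males, and at -0.14, 0.10 and 0.04 in mutant females and 0.08, 0.10 and 0.00 in wild type females. Here mutant males stood above wild type males, while the female groups overlapped. Mutant female 1, the library set apart by Krt17 and Pdgfra above, was lowest of the 12 libraries, and a link between these was not tested.

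**Figure D1:**
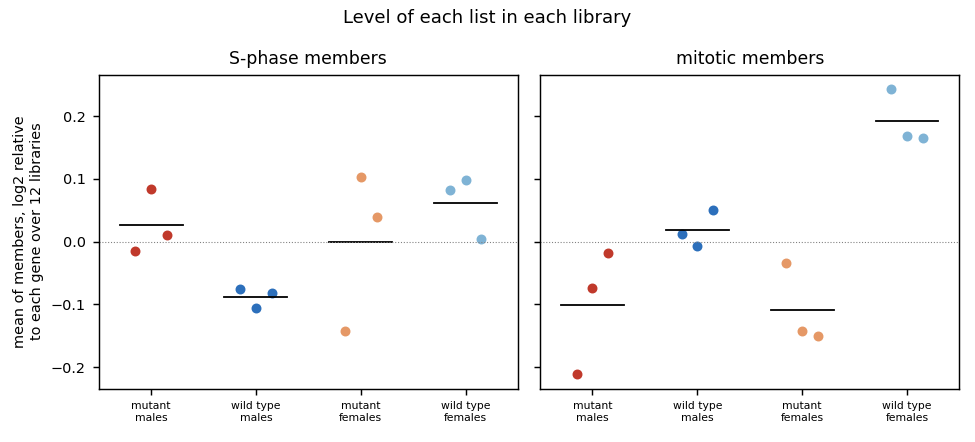
Mean level of the 13 S-phase members and the 22 mitotic members in each library, on the log2 scale relative to each gene's own mean over 12 libraries. Dots are libraries and bars are group means; the mitotic list is highest in the 3 wild type females, at 0.17 to 0.24.

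Over both sexes, mitotic genes were more often lower in mutants and S-phase genes moved in both directions. By limma with Benjamini-Hochberg adjustment over 13904 genes and a threshold of 0.05, 2 of 22 mitotic members were higher and 11 were lower, at a median log2 fold change of -0.14. Of 13 S-phase members 3 were higher and 1 was lower, at a median of 0.01. Among all genes tested 18.9% were higher and 21.6% lower, at a median of 0.00, so the mitotic count of 11 stood above that share and the S-phase counts near or below it. With FPKM as deposited, 1 mitotic member was higher and 9 lower and 0 S-phase members were called, beside 552 higher and 2872 lower of all 13904 genes. Library sums, here and below, leave out Rn7sk and the genes whose symbols begin with Hba or Hbb. With scaling by these sums the counts were 1 and 13 mitotic and 1 and 3 S-phase members, beside 1237 higher and 4131 lower of all genes. More S-phase members were then lower than higher, as were more of all genes. Both scalings put the median of all genes at -0.11. Leaving out wild type males 1 and 2 together kept 1 wild type male. That fit called fewer members of each list, and fewer of all genes. The 4 S-phase calls became 2 without mutant male 2, wild type male 1, mutant female 2 or wild type female 3. In that order, these fits called 2199, 2084, 2628 and 2186 of all genes higher and 2683, 2591, 3098 and 2611 lower. The main fit called 2631 higher and 3008 lower.

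In males, 3 mitotic members were higher and 5 lower (median -0.08), beside 8.64% and 11.6% of all genes tested. Among S-phase members 1 was higher and 0 lower in males (median 0.08), with 4 higher and 0 lower at an unadjusted p under 0.05. Shares of all genes, here and below, are for adjusted p. Counts of members at the unadjusted level have no such share beside them, except for the difference of the mutant effect. In females, 2 mitotic members were higher and 11 lower (median -0.19), beside 12.1% and 15.9% of all genes tested. Among S-phase members 0 were higher and 2 lower in females (median -0.07), with 1 higher and 3 lower at an unadjusted p under 0.05. The male calls depended on which libraries were kept. The fit without mutant male 1 called 0 mitotic members lower in males, with 6 at an unadjusted p under 0.05. The fits without wild type male 1, 2 or 3 called 1, 3 and 3. Calls over all genes fell too, from 1618 of 13904 lower in males to 729 of 13833 without mutant male 1. Without wild type male 1, 2 or 3 they were 795 of 13831, 1129 of 13823 and 1275 of 13867. Without both wild type males 1 and 2, a fit added after their blood markers were seen, 0 members of either list were called in males, with 2 mitotic members higher and 8 lower at an unadjusted p under 0.05. The lone wild type male left was taken to vary like the other groups, and 6 genes of 13729 were called higher and 11 lower in males. The S-phase count of 2 in females became 1 without any male library or any wild type female, with Rrm1 called in all 12 fits that left out a library.

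**Figure D2:**
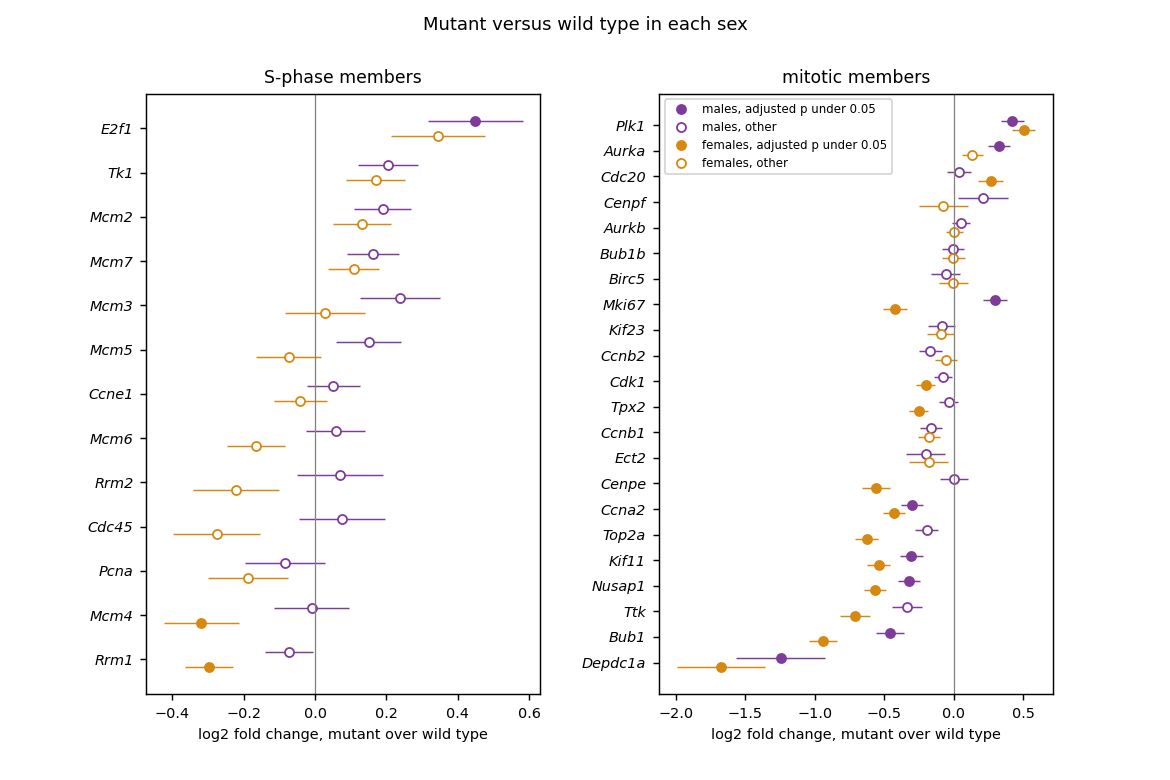
Log2 fold change of every member, mutant over wild type, in males and in females, with the standard error from limma. Filled circles passed the adjusted p of 0.05: in females 11 mitotic members lie below 0 and 2 above, and Mki67 lies above 0 in males and below 0 in females.

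Among S-phase genes, E2f1, a transcription factor that switches on replication genes and its own gene (chr2:154401327-154411812, mm39), differed most. It had 5.06, 5.39 and 5.46 scaled FPKM in mutant males and 4.17, 3.47 and 3.64 in wild type males, and 3.56, 4.83 and 5.38 in mutant females and 3.20, 3.81 and 3.398 in wild type females. The male groups did not overlap, while mutant female 1 lay within the wild type female range. The log2 fold change was 0.40 ± 0.09 (SE) over both sexes (limma adjusted p = 0.00615), 0.45 in males (0.0349) and 0.34 in females (0.0731, not called). Bare values with ± below are log2 fold changes with their SE, and bare values in parentheses after them are limma's adjusted p. Without any single male library, or without wild type female 3, the call in males was lost.

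Nucleotide supply was split. Rrm1, the large subunit of ribonucleotide reductase, which makes deoxynucleotides (chr7:102090902-102118978, mm39), had 32.5, 35.995 and 34.8 scaled FPKM in mutant males and 36.8, 35.1 and 36.8 in wild type males, and 35.96, 38.8 and 34.9 in mutant females and 47.1, 45.2 and 42.7 in wild type females. Every mutant female lay below every wild type female, and the male groups overlapped. Rrm1 fell in females (log2 fold change -0.30 ± 0.07, limma adjusted p = 0.00848) and was at -0.07 ± 0.07 in males (0.48).
The small subunit Rrm2 was not called, at -0.08 ± 0.09 over both sexes, with mutant female 1 lowest of the 12 libraries, at 15.2 scaled FPKM. Tk1, the thymidine kinase of the salvage pathway, had 19.97, 20.7 and 19.4 scaled FPKM in mutant males and 17.3, 18.9 and 15.8 in wild type males, and 23.3, 23.5 and 20.3 in mutant females and 20.2, 20.5 and 18.7 in wild type females. The male groups did not overlap and the female groups did. Tk1 rose over both sexes by 0.19 ± 0.06 (limma adjusted p = 0.0254) and was not called in either sex alone. That call was lost in 5 of the 12 fits without a library, and the gene overlaps Afmid in the table.

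Of the 6 subunits of the MCM helicase, a ring that unwinds DNA with an equal share of each, 1 was called over both sexes. Mcm2 rose over both sexes by 0.16 ± 0.06 (limma adjusted p = 0.0422), a call lost in 10 of the 12 fits that left out a library, and Mcm7 at 0.14, Mcm3 at 0.13 and Mcm5 at 0.04 were not called (0.0549, 0.201 and 0.659). Mcm4 and Mcm6 were at -0.16 and -0.05 and were not called over both sexes (0.0992 and 0.482). The GC content of the transcripts was lower for the pair below 0, at 45.5% for Mcm4 and 47.3% for Mcm6, against 51.7% to 53.4% for the other 4.
Mcm4 had 27.1, 27.6 and 27.5 scaled FPKM in mutant males and 27.7, 26.8 and 28.3 in wild type males, and 19.4, 25.7 and 26.9 in mutant females and 30.99, 30.4 and 27.9 in wild type females. The male groups overlapped and the female groups did not, with mutant female 1 well below the other libraries. Mcm4 fell in females, at -0.32 ± 0.10 (limma adjusted p = 0.0422), a call also lost in 10 of those 12 fits. Mcm5 had 36.8, 39.02 and 35.02 scaled FPKM in mutant males and 31.8, 33.4 and 34.5 in wild type males, and 35.8, 45.02 and 38.1 in mutant females and 42.5, 43.9 and 38.4 in wild type females. The male groups did not overlap and the female groups did.

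The remaining S-phase members were not called in any comparison of genotypes. Ccne1, the cyclin E that starts S phase with CDK2, moved least of the list over both sexes, at 0.005 ± 0.05. Ccne1 had 9.84, 9.78 and 9.31 scaled FPKM in mutant males and 9.73, 9.44 and 8.72 in wild type males, and 9.27, 8.51 and 9.85 in mutant females and 9.11, 9.60 and 9.72 in wild type females. All 4 groups overlapped. Cdc45, which loads with the helicase at firing origins, was at -0.10 ± 0.09, and Pcna at -0.14 ± 0.08.

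**Figure D3:**
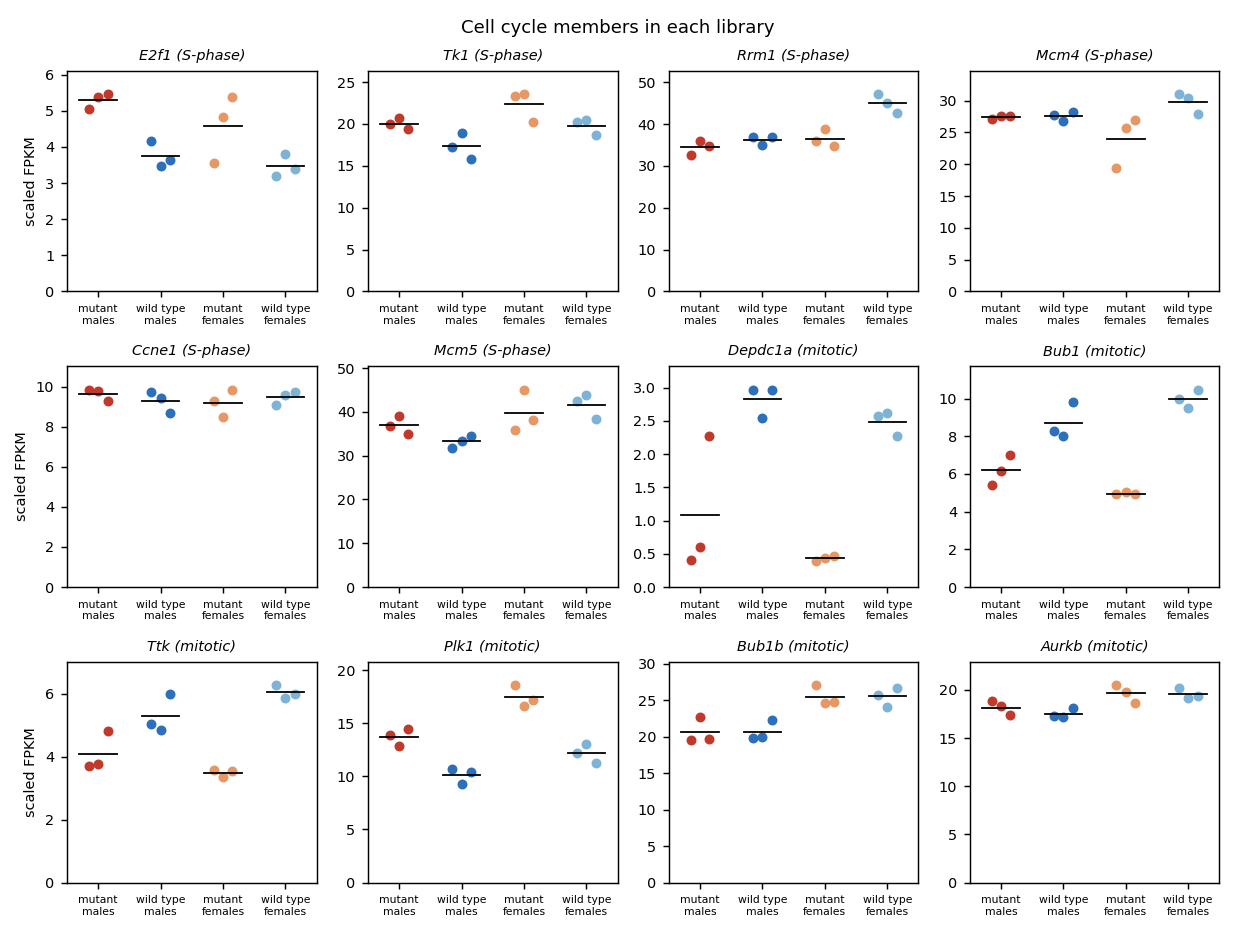
Scaled FPKM of the 4 members with the largest and the 2 with the smallest fold change over both sexes in each list; dots are libraries and bars are group means. Bub1 and Ttk are lower in every mutant library than in every wild type library, and Plk1 is higher in mutants within each sex.

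Depdc1a, a gene of dividing cells known from human tumours (chr3:159201070-159235592, mm39), showed the largest change of the mitotic members. It had 0.401, 0.598 and 2.27 scaled FPKM in mutant males and 2.96, 2.55 and 2.97 in wild type males, and 0.398, 0.441 and 0.464 in mutant females and 2.57, 2.62 and 2.27 in wild type females. Mutant and wild type did not overlap in either sex, and mutant male 3 stood near the wild type level. The log2 fold change was -1.46 ± 0.23 over both sexes (limma adjusted p = 0.000555), -1.25 ± 0.32 in males (0.0206) and -1.67 ± 0.32 in females (0.00365). With a pseudocount of 0.5 these values understate the change of a gene at this level. Depdc1a also had the lowest transcript GC content of the 35 members, at 35.3%. The call in males was lost without mutant male 1, mutant male 2 or wild type male 1.

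The spindle checkpoint, which holds anaphase until every chromosome is attached, was lower at the kinases Bub1 and Ttk. Bub1, the checkpoint kinase of the kinetochore (chr2:127643036-127673785, mm39), had 5.43, 6.17 and 7.02 scaled FPKM in mutant males and 8.28, 8.03 and 9.84 in wild type males, and 4.91, 5.04 and 4.91 in mutant females and 9.9999, 9.49 and 10.46 in wild type females. All 6 mutant libraries lay below all 6 wild type libraries. Bub1 fell, at -0.46 ± 0.10 in males (limma adjusted p = 0.0111) and -0.94 ± 0.10 in females (0.000411), on the log2 scale, and the call in males was lost without mutant male 1.
Ttk, the kinase MPS1 that starts the checkpoint, had 3.72, 3.76 and 4.80 scaled FPKM in mutant males and 5.03, 4.84 and 5.98 in wild type males, and 3.59, 3.34 and 3.56 in mutant females and 6.27, 5.87 and 5.99 in wild type females. Here too all mutant libraries lay below all wild type libraries. Ttk fell in females, at -0.71 ± 0.11 (limma adjusted p = 0.0013) and was at -0.33 ± 0.11 in males (0.0501, not called).
The paralogue Bub1b, which encodes BubR1 of the same checkpoint, moved least of the list, at -0.005 ± 0.06 over both sexes (limma adjusted p = 0.953). Bub1b had 19.5, 22.6 and 19.6 scaled FPKM in mutant males and 19.8, 19.9 and 22.3 in wild type males, and 27.01, 24.5 and 24.8 in mutant females and 25.8, 24.1 and 26.6 in wild type females. The genotypes overlapped in both sexes, and all females lay above all males. Cenpe, a kinetochore motor that congresses chromosomes, fell in females (-0.56 ± 0.10, limma adjusted p = 0.00306) and was at -0.0001 in males. Cenpf, a large kinetochore protein, was not called, at 0.07 ± 0.13.

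The mitotic kinases and their partners moved in different directions. Plk1, the polo kinase that acts from centrosome maturation to cytokinesis (chr7:121758662-121769096, mm39), had 13.9, 12.9 and 14.4 scaled FPKM in mutant males and 10.7, 9.30 and 10.5 in wild type males, and 18.6, 16.6 and 17.1 in mutant females and 12.2, 13.1 and 11.3 in wild type females. Mutants lay above wild type in both sexes without overlap, and mutant females were the highest group. Plk1 rose by 0.42 ± 0.08 in males (limma adjusted p = 0.00693) and 0.50 ± 0.08 in females (0.00189), and kept both calls in all 12 fits that left out a library. With FPKM as deposited both calls were lost, with library sums the female call, and without wild type males 1 and 2 together the male call.
Aurka, the centrosome kinase that activates Plk1, rose in males by 0.33 ± 0.08 (limma adjusted p = 0.0149), a call that needed both mutant male 2 and wild type male 1, and was at 0.13 ± 0.08 in females (0.218). Aurkb, the kinase of the chromosomal passenger complex, had 18.9, 18.3 and 17.4 scaled FPKM in mutant males and 17.2, 17.2 and 18.2 in wild type males, and 20.5, 19.8 and 18.7 in mutant females and 20.2, 19.2 and 19.3 in wild type females. The genotypes overlapped in both sexes, at 0.03 ± 0.04 over both sexes. Birc5, the passenger protein survivin, was at -0.03 ± 0.07 and was not called.
Cdk1 fell in females, at -0.20 ± 0.07 (limma adjusted p = 0.0393), a call lost in 8 of the 12 fits without a library. Ccna2, the cyclin A of S phase and early mitosis, fell, at -0.30 ± 0.08 in males (0.0232) and -0.43 ± 0.08 in females (0.00301), by limma, and the table has it overlap Exosc9. Of the B cyclins that pair with Cdk1, Ccnb1 fell over both sexes (-0.17 ± 0.06, limma adjusted p = 0.0306), a call lost in 7 of those 12 fits, and Ccnb2 was at -0.11 ± 0.06. Cdc20, which activates the ligase that destroys them, rose in females by 0.26 ± 0.09 (0.0443), a call lost in 11 of those 12 fits.

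Among the spindle and chromosome genes, Kif11, the kinesin that pushes spindle poles apart, fell, at -0.31 ± 0.08 in males (limma adjusted p = 0.0247) and -0.54 ± 0.08 in females (0.00129). Nusap1, a microtubule binding protein of the spindle, fell, at -0.32 ± 0.08 in males (0.018) and -0.57 ± 0.08 in females (0.000954), and overlaps Oip5 in the table. Tpx2, which targets Aurka to the spindle, fell in females (-0.25 ± 0.07, limma adjusted p = 0.0182), a call that leaving out mutant female 3, or either of wild type females 1 and 2, ended. The male calls of Kif11 and Ccna2 were lost without mutant male 1 or any wild type male, and that of Nusap1 without replicate 1 of either male group.
Top2a averaged 55.3 ± 5.25 scaled FPKM in mutant males and 63.3 ± 4.67 in wild type males, and 51.6 ± 1.997 in mutant females and 79.9 ± 3.03 in wild type females (SD, n = 3 each). It fell in females, at -0.63 ± 0.08 (limma adjusted p = 0.000745) and was at -0.20 ± 0.08 in males (0.116). The cytokinesis genes Kif23, a motor of the central spindle, and Ect2, the exchange factor for RhoA, were not called in any comparison of genotypes, at -0.09 and -0.19 over both sexes.

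Mki67, the gene of the proliferation marker Ki-67, stood out after its values were seen. It had 41.2, 45.9 and 44.1 scaled FPKM in mutant males and 38.2, 36.05 and 32.5 in wild type males, and 36.7, 32.8 and 32.1 in mutant females and 49.6, 43.7 and 43.7 in wild type females. Every mutant male lay above every wild type male, and every mutant female lay below every wild type female. Mki67 rose by 0.30 ± 0.09 in males (limma adjusted p = 0.032) and fell, at -0.43 ± 0.09 in females (0.0047), and the call in males was lost in 5 of the 12 fits that left out a library. The difference of the mutant effect, males minus females, was 0.72 ± 0.12 and did not pass (limma adjusted p = 0.295).
For that difference limma called 0 of the 35 members and 0 of the 13904 genes (0%), with 7 members and 1225 genes (8.81%) at an unadjusted p under 0.05. The other 6 members at that level were Cenpe, Bub1, Top2a, Ttk, Rrm1 and Tpx2, at 0.56, 0.48, 0.43, 0.38, 0.22 and 0.22. No difference between the sexes in the response to the genotype was therefore called for any member.

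The direction of the members followed the base composition of their transcripts. GC content of the longest annotated transcript ran from 35.3% to 58.3% over the 35 members, at a median of 46.2% for mitotic members, 51.7% for S-phase members and 49.9% for all genes tested. Across the 35 members it correlated with the log2 fold change over both sexes at Pearson r = 0.85 and Spearman rho = 0.87, and across 13735 genes at 0.61 and 0.67. These are descriptions across genes, which share the 12 libraries and their depth. For the males over females difference in mutants, r was -0.56 over the 35 members and -0.77 over the 22 mitotic members, and in wild type it was -0.11 and -0.36. Over the 13 S-phase members r was -0.17 in mutants and 0.19 in wild type, and over all genes tested it was -0.19 and -0.06. The GC ranges that follow were chosen after the values were seen. Below 42%, 3 of 4 members were lower, beside 69.0% of all genes in that range, and from 42% to 45%, 6 of 7 members were lower, beside 49.5%. From 45% to 48%, 3 of 10 members were lower, beside 28.6%. At 54% and above, 2 of 3 members were higher, beside 44.2%. All 12 members that fell had a GC content below 48%, and all 5 that rose were above 51%.

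**Figure D4:**
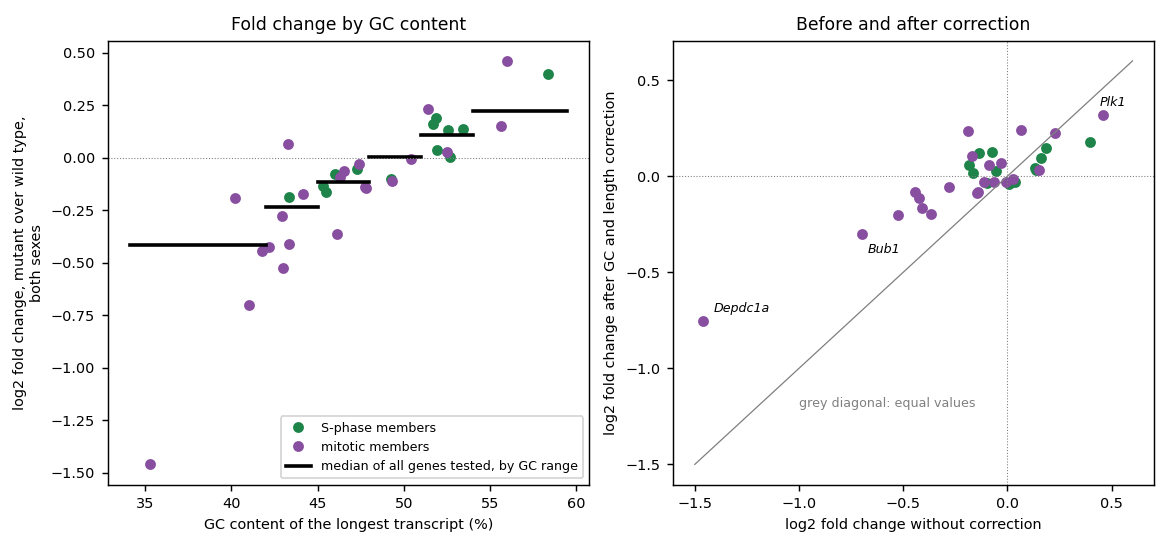
Left, S-phase members in green and mitotic members in purple, with the log2 fold change over both sexes (mutant over wild type) against the GC content of the transcript and the median of all genes tested in each GC range as black lines, from -0.42 below 42% to 0.22 at 54% and above. Right, the same fold changes before and after correction for GC content and transcript length; Depdc1a stays lowest, at -0.76.

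After a correction of each library for GC content and transcript length, over the 13735 genes with both values, fewer members were called. Over both sexes 2 mitotic members were higher and 4 lower (median -0.03), beside 10.2% and 7.36% of all genes, and 0 S-phase members were called (median 0.04), with 1 higher and 0 lower at an unadjusted p under 0.05. In females 1 mitotic member was higher and 4 lower, beside 4.68% and 3.31% of all genes, and 0 S-phase members were called, with 0 in either direction at an unadjusted p under 0.05. In males 1 mitotic member was higher and 0 lower, beside 2.08% and 1.41% of all genes, with 3 and 1 at an unadjusted p under 0.05. Among S-phase members 0 were called in males by limma, with 1 higher at that unadjusted level.
The members still called over both sexes were Depdc1a at -0.76 (limma adjusted p = 0.0137), Bub1 at -0.30 (0.00623), Ccna2 at -0.20 (0.0306), Top2a at -0.16 (0.043), Aurka at 0.23 (0.0178) and Plk1 at 0.32 (0.00608). In females Bub1 was at -0.52, Ttk at -0.38, Top2a at -0.33 and Depdc1a at -0.90, each called lower, and Plk1 at 0.32 was called higher (0.0432), a call lost with the replicate block added (0.0541). In males Aurka at 0.34 was the only member called. E2f1 was at 0.18 (0.236), Tk1 at 0.15 (0.0668) and Mki67 at 0.25 in males and -0.32 in females, and these were not called. Rrm1 and Ccnb1 changed sign, to 0.06 and 0.11, and were not called.

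Chromosome 2, which carries Itga6, holds 7 of the 35 members. E2f1 and Aurka were higher, Bub1, Nusap1 and Tpx2 were lower, and Pcna and Bub1b were not called over both sexes. On the other chromosomes 3 of 28 members were higher and 9 lower. Of all genes tested, on any chromosome, 18.9% were higher and 21.6% lower, and no share for all genes of chromosome 2 is given. Besides the overlaps named above, the table has Cdc20 overlap Elovl1, Cdc45 overlap Ufd1, Mcm7 overlap Ap4m1 and Cops6, and Pcna overlap AV099323, and reads of such pairs may not be told apart. Distance from the ends of the inversion was not analysed here.

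Between the sexes, members tended to be lower in wild type males than in wild type females. The log2 fold change, males over females, was below 0 for 32 of 35 members in wild type, at a median of -0.18 beside 0.01 for all genes tested. Only 3 members were called lower and 0 higher by limma, beside 1.23% and 1.95% of all genes called. At an unadjusted p under 0.05, 16 were lower and 0 higher, and the share of all genes at that level is not given. The 3 called were Rrm1 at -0.31 ± 0.07 (limma adjusted p = 0.0333), Mki67 at -0.36 ± 0.09 (0.0489) and Aurka at -0.33 ± 0.08 (0.0444). The fit without mutant female 1 called 9 members, beside 529 higher and 461 lower of 13838 genes. That without mutant male 3 called 1, beside 241 and 149 of 13887. Those without wild type male 1 or 2 called 0, beside 140 and 71 of 13831 and 105 and 59 of 13823. Those without wild type female 1, 2 or 3 also called 0, beside 104 and 56, 124 and 57, and 159 and 95 of all genes. After the GC and length correction Rrm1, Aurka and Top2a were called lower, at -0.32, -0.35 and -0.35.
In mutants the median was -0.04 beside 0.02 for all genes, and 1 member was higher and 3 lower in mutant males than in mutant females, beside 3.98% and 3.52% of all genes. Mki67 was higher, at 0.37 ± 0.09 (limma adjusted p = 0.028), the opposite of its direction in wild type, and the gap between these values is the difference given above, which was not called. Cdc20 at -0.34, Plk1 at -0.34 and Bub1b at -0.30 were lower (0.0412, 0.0346 and 0.046). The 4 calls became 0 without mutant male 3, and 1 or 2 in 9 of the other 11 fits without a library, with 3 without mutant female 1 and 4 without wild type male 3. With library sums the median of all genes stood at 0.32 in this comparison, and 20 members were called higher and 0 lower. Of all 13904 genes, 6462 were then called higher and 237 lower. The direction of Bub1b flipped to 0.03. After the GC and length correction 0 members were called by limma, with 3 higher and 6 lower at an unadjusted p under 0.05.

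Further genes of the pathway were taken from 4 lists. Among 45 other DNA replication genes, 9 were higher and 15 lower in mutants over both sexes (median -0.05), and among 52 other mitotic genes, 9 were higher and 24 lower (median -0.16). Among 15 G1 entry genes, 6 were higher and 1 lower (median 0.23), and among 20 tested genes that brake the cell cycle, of 21 listed, 5 were higher and 6 lower (median -0.06). All genes tested had 18.9% higher and 21.6% lower. In females the counts higher and lower were 6 and 15, 8 and 22, 2 and 1, and 5 and 5, in the order of these lists, beside 12.1% and 15.9% of all genes. In males they were 7 and 9, 5 and 10, 2 and 1, and 2 and 2, beside 8.64% and 11.6%. After the GC and length correction the counts were 8 and 4, 3 and 4, 4 and 1, and 2 and 2 (of 19 brakes with values), beside 10.2% and 7.36% of all genes.

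**Figure D5:**
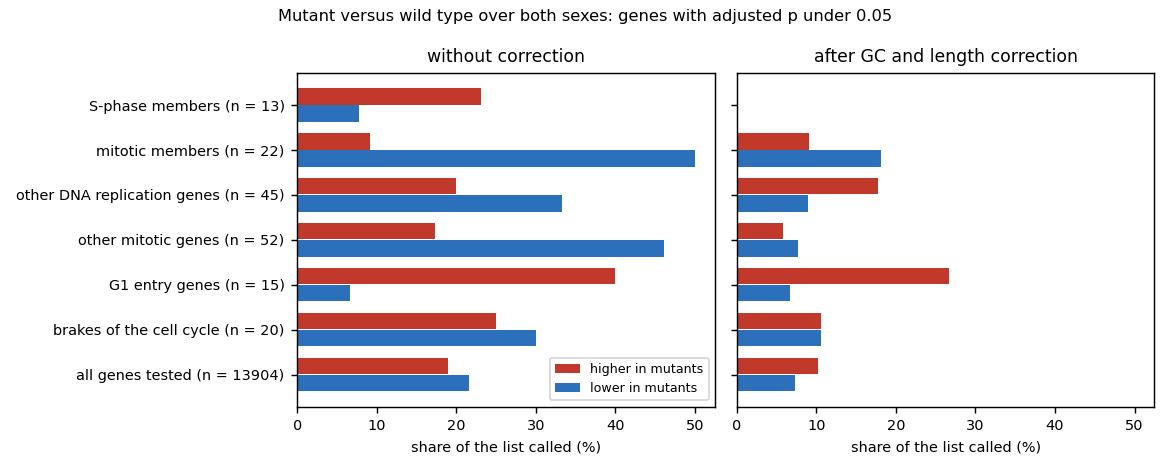
Share of each list called higher and lower over both sexes (mutant over wild type, limma adjusted p under 0.05), without correction and after correction for GC content and transcript length. Without correction 11 of 22 mitotic members and 24 of 52 other mitotic genes were lower; after correction 4 of each were.

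Orc4, a subunit of the complex that marks replication origins, had 3.02, 3.56 and 6.77 scaled FPKM in mutant males and 9.54, 8.33 and 10.8 in wild type males, and 3.46, 2.25 and 2.94 in mutant females and 7.97, 7.89 and 10.1 in wild type females. All mutant libraries lay below all wild type libraries. Orc4 fell over both sexes, at -1.27 ± 0.17 (limma adjusted p = 0.000262) and was at -0.66 after correction (0.00494).
Knl1, the scaffold that holds Bub1 at the kinetochore, and Ncapg, a condensin subunit, fell, at -0.84 and -0.80 (limma adjusted p = 0.000331 and 0.000514). After correction Knl1 was called at -0.34 (0.0259) and Ncapg was not, at -0.09 (0.402).

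The G1 genes differed among themselves. Ccne2, the other E cyclin, averaged 2.74 ± 0.457 scaled FPKM in mutant males and 5.67 ± 0.711 in wild type males, and 2.001 ± 0.628 in mutant females and 5.43 ± 0.234 in wild type females (SD, n = 3 each). It fell, at -1.10 ± 0.12 over both sexes (limma adjusted p = 9.47e-05; GC content 36.3%), while Ccne1 (GC content 52.7%) was not called. Myc, a transcription factor that drives growth and G1 entry, rose by 0.41 ± 0.08 (0.00249). After correction Ccne2 was at -0.44 and Myc at 0.34, and both were called.
Among the brakes, Rb1, the retinoblastoma protein that holds E2F in check, averaged 3.54 ± 1.03 scaled FPKM in mutant males and 5.21 ± 0.828 in wild type males, and 2.35 ± 0.346 in mutant females and 5.30 ± 0.733 in wild type females (SD, n = 3 each). It fell, at -0.77 ± 0.13 (limma adjusted p = 0.000773) and was at -0.41 after correction (0.0254). Trp53, the gene of p53, averaged 31.2 ± 3.05 in mutant males and 20.5 ± 0.232 in wild type males, and 35.9 ± 2.31 in mutant females and 22.7 ± 1.31 in wild type females. It rose by 0.62 ± 0.06 (limma adjusted p = 5.48e-05) and by 0.51 after correction (0.000418), with no overlap between genotypes.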

How the data were processed

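The authors deposited FPKM for 56495 genes in 12 libraries, per the file headers, with 0 columns of other samples. Libraries were strand-specific and single-end, from RNA depleted of ribosomal RNA with RIN above 9.5, per the labels' protocols. The submitters' processing notes name Cufflinks 2.2.1, bedtools 2.30.0, STAR 2.7.10a and cutadapt 4.1, and the builds mm39 and mm10, with no role. The annotation and the strand setting are not given in the sources used here; positions were taken as mm39, since only 2.74% of gene ends match GENCODE M21, which is on GRCm38. FPKM give no counts, so depth was read only in relative terms and no counting interval was computed.

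Libraries were divided by median ratios over 11897 genes, and log2 of the scaled FPKM plus 0.5 was fitted with limma 3.58.1 (R 4.3.3; one mean per group, intensity trend, two-sided), for 6 comparisons. GC and length correction used a spline (4 df) per library, with GENCODE M21 transcripts for 98.8% of genes tested. Values in every library are given for the 4 largest and 2 smallest fold changes of each list over both sexes, and for Mki67, chosen after its values were seen; 2 called genes with the largest change are named from each other list, except 1 that is not reported here. Members and lists were chosen with earlier results of these data known. Alternatives were pseudocounts, filters, scalings, no trend, only the groups compared, a replicate block, leaving out each library and, added after the data were seen, leaving out wild type males 1 and 2 together. Replicate numbers were not taken as pairs.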

Additional observations from a re-analysis of the deposited data

How the results depend on the processing

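Pseudocounts of 0.1 and 1, a filter of 5 FPKM and upper quartile scaling kept the 8 counts of calls below within 1.5 times. Of counts in 1 direction, mitotic members higher in females (2) became 1 with upper quartile scaling, and mitotic members lower in wild type males than females (2) became 1 with the pseudocount of 0.1 and the filter of 5 FPKM. The mitotic members lower in males (5) became 3 with FPKM as deposited, 3 with only the groups compared, and 0 to 6 when 1 library was left out. All genes lower in males (1618) became 1229, 1781 and 729 to 2079 in these settings. Those in females (11) became 17 with library sums, and 9 to 11 without a library. Library sums called 4547 of all 13904 genes lower in females and 355 higher, against 2208 and 1687 in the main fit. Those over both sexes (11) ranged from 8 to 12 without a library. The S-phase calls in males (1) became 0 with no filter and with FPKM as deposited, 2 with the replicate block, and 0 to 3 without a library. In females (2) they became 1 with no filter, no intensity trend, only the groups compared or the replicate block, 0 with FPKM as deposited, 8 with library sums, and 1 to 3 without a library. Over both sexes (4) they became 0 with FPKM as deposited and 2 to 6 without a library, with 2 without mutant male 2, wild type male 1, mutant female 2 or wild type female 3. Between the sexes in wild type (3) the calls became 1 with no filter or the replicate block, 0 with FPKM as deposited, library sums or no intensity trend, 7 with only the groups compared, and 0 to 9 without a library. In mutants (4) they became 0 with no filter, FPKM as deposited or only the groups compared, 2 with no intensity trend or the replicate block, and 0 to 4 without a library. With library sums they became 20, beside 6462 of all 13904 genes higher and 237 lower. The GC and length correction left 0 mitotic members lower in males, 4 in females, 4 for both sexes together, 0 S-phase calls in these comparisons, and 0 calls between the sexes in mutants. With the replicate block added these counts were the same, except 1 S-phase call over both sexes, and the mitotic members higher in females went to 0 against 1 with the correction alone. The correction reversed Nusap1 in males to 0.0187, Ccnb1 to 0.11 and Rrm1 to 0.0576 over both sexes, with and without the block, and library sums reversed Bub1b between the sexes in mutants to 0.0284. Leaving out wild type males 1 and 2 together, chosen after seeing the data, kept 1 wild type male. Fewer members were then called in males, over both sexes and between the sexes, as were fewer of all genes. The cause was not tested. Same-numbered libraries had correlations of -0.226 to 0.317 in their deviations, with 3 of 18 over 0.1. Deviations from means of 3 libraries cannot settle whether the numbers pair the samples, and the numbers were not taken as pairs.

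Library sums shifted the median of all genes by -0.22 in females and FPKM as deposited by -0.14 in males. FPKM give no counts, so no floor can be set for Depdc1a, the lowest member.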
